A study of Homo sapiens with 12 samples.

Results

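NEAT1, MALAT1 and 5 genes for proteins that bind them or share their nuclear bodies (SFPQ, NONO, PSPC1, RBM14 and TARDBP) were followed across 4 groups of Raji cells. They are 7 of the 60707 genes in the deposited count table, found there by gene identifier. All 7 passed the filter on low counts that left 17859 genes for testing. They were chosen by name with their FX1 and gate effects in these same libraries already known, so their levels and fold changes are given as a description, without p-values.

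Raji is a human Burkitt lymphoma cell line, a B-cell tumour line. The series studied an auxin-inducible degron for SMARCA4 (BRG1), the ATPase of SWI/SNF chromatin remodelling complexes, and its design text names treatment with FX1 during degradation of the SMARCA4 protein as the question. Cells were gated as GFP-high or GFP-low and received either FX1, a compound that inhibits the repressor protein BCL6, or DMSO as the vehicle. The sample names call the vehicle libraries untreated, and the treatment field gives DMSO. All 12 libraries were taken at 24 h, 3 for each combination of gate and treatment, and all carry the genotype label Smarca4+/+. How the GFP signal tracks SMARCA4 protein, whether the degron line is a single clone, and whether libraries of 1 group are separate cultures is not stated in the labels. The spread between libraries may therefore be technical. The SE and p-values below measure this spread, which may be smaller than that between separate cultures.

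NEAT1 is a long noncoding RNA that builds paraspeckles, nuclear bodies found next to splicing speckles. Its long isoform is the scaffold, and the short isoform shares the same start and ends at an early polyadenylation site. SFPQ, NONO and PSPC1 are related RNA-binding proteins that coat NEAT1, and SFPQ and NONO are needed for paraspeckles to form. RBM14 holds the coated particles together through its prion-like domain, and TARDBP (TDP-43) binds UG-rich RNA. MALAT1, the neighbour of NEAT1 on chromosome 11, is retained in nuclear speckles, the stores of splicing factors. Neither long NEAT1 nor MALAT1 ends in a usual poly(A) tail: RNase P cuts each just before a tRNA-like sequence, and the new end folds into a triple helix of U-rich and A-rich stretches. SWI/SNF complexes that contain BRG1 are known to take part in paraspeckle assembly.

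In hg38, the build of the file, NEAT1 (ENSG00000245532.9) lies at chr11:65422774-65445540 on the plus strand as 22767 bases of exon, and MALAT1 (ENSG00000251562.8) at chr11:65497688-65506516 on the same strand as 8829 bases of exon. The 2 genes are 52147 bases apart. SFPQ (ENSG00000116560.11) lies at chr1:35176378-35193145 (minus), NONO (ENSG00000147140.17) at chrX:71254814-71301522 (plus), PSPC1 (ENSG00000121390.19) at chr13:19674752-19783019 (minus), RBM14 (ENSG00000239306.5) at chr11:66616626-66629934 (plus) and TARDBP (ENSG00000120948.19) at chr1:11012344-11030528 (plus).

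The 3′ ends of NEAT1 and MALAT1 are shown because they are what sets this pair of RNAs apart from polyadenylated genes. Both are read 5′ to 3′ from the GENCODE 29 transcripts, at chr11:65445431-65445540 and chr11:65506007-65506116 (plus strand). Capitals mark the U-rich motifs, written with T, and the A-rich tract.
NEAT1 3′ end: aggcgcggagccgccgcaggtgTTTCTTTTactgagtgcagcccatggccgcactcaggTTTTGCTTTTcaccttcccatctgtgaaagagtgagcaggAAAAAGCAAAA
MALAT1 3′ end: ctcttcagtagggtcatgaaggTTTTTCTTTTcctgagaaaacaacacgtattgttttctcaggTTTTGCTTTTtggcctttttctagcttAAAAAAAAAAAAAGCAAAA
The tRNA-like RNAs that follow directly (chr11:65445541-65445598 and chr11:65506117-65506173, plus strand) are given with the tRNA-like T-arm in capitals.
tRNA-like RNA after NEAT1: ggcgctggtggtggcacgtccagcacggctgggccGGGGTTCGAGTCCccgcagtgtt
mascRNA after MALAT1: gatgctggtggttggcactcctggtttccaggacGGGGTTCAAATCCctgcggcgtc
Aligned end to end, the last 110 bases of the mature RNAs matched at 74 of 123 alignment columns (60.2%), and the tRNA-like RNAs at 41 of 61 (67.2%). Both small RNAs are annotated as genes of their own. The table listed mascRNA at 0 reads in all 12 libraries and the tRNA-like RNA after NEAT1 at 0 to 4 reads, 7 in all, so neither can be compared between groups. Inside NEAT1, 3 annotated miscellaneous RNAs and MIR612 were also at 0, as was 1 miscellaneous RNA inside MALAT1.

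A pair of stretches within NEAT1 bears on the proteins described here. The first (chr11:65444262-65444321, plus strand) is its densest UG repeat, with TGTGTG in capitals.
NEAT1 UG-rich stretch: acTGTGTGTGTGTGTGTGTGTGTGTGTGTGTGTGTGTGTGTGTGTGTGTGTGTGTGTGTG
TGTGTG was searched on the sense strand of transcripts, overlaps counted. It occurred 76 times in the 22743 bases of NEAT1, or 3.34 per kb, and 4 times in MALAT1, or 0.46 per kb. The median over 86337 transcripts of at least 1000 bases was 0.36 per kb, 1.41% of them reached the density of NEAT1 and 42.9% that of MALAT1. The second stretch is the last 150 bases of short NEAT1 (chr11:65426308-65426457, plus strand), with TGTA, the core of the UGUA element read by the cleavage factor subunit NUDT21, in capitals.
NEAT1 short isoform end: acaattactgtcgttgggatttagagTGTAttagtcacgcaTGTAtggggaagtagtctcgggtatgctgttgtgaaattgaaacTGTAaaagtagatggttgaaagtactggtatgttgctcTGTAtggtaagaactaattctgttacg
It holds 4 matches to TGTA, and 3.02% of the 86337 transcript ends of the same length held as many. These matches are letters, not measured binding.

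Sequencing gave 20454028 to 42556661 gene counts per library, and levels are given as CPM, the count relative to the library size after TMM scaling. Mitochondrial genes took 7.84 to 7.91% of counts under DMSO and 4.23 to 4.32% under FX1 in the GFP-high gate. In the GFP-low gate they took 4.72 to 4.83% under DMSO and 5.05 to 5.13% under FX1. All 6 B-cell markers were detected, at a summed level of 1788 to 2667 CPM. The 6 T and NK markers summed to 3.49 to 10.4 CPM with CD8A at 0, 5 myeloid markers to 2 to 6.44 CPM, and 4 epithelial and stromal markers to 8.15 to 17.3 CPM. The B-cell sum was highest in GFP-high DMSO (2650 to 2667) and lowest in GFP-low FX1 (1788 to 1794). Its members went both ways: in these 2 groups the means were 883 and 395.6 CPM for MS4A1 and 865.6 and 353.2 CPM for CD22, but 203.5 and 350.1 CPM for CD79B. The part of these differences in the results was not tested. In bulk RNA, a change in the make-up of the cells and a change of RNA per cell cannot be told apart.

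Compared per kb of exon, MALAT1 was by far the most abundant of the 7, at 718 to 890 CPM per kb over the group means. SFPQ followed at 62.7 to 94.9, NEAT1 at 41.9 to 63.3, NONO at 38.7 to 46.2 and TARDBP at 35.9 to 44.6 CPM per kb. PSPC1 lay at 13.9 to 17 and RBM14 at 11 to 15.7 CPM per kb. Ranked per kb among 17859 genes, MALAT1 was number 22, SFPQ 361, NEAT1 663, NONO 858, TARDBP 941, PSPC1 3200 and RBM14 3597. The NEAT1 value divides by the exon length of the whole gene, although reads of the short isoform are counted in it.

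**Figure D1:**
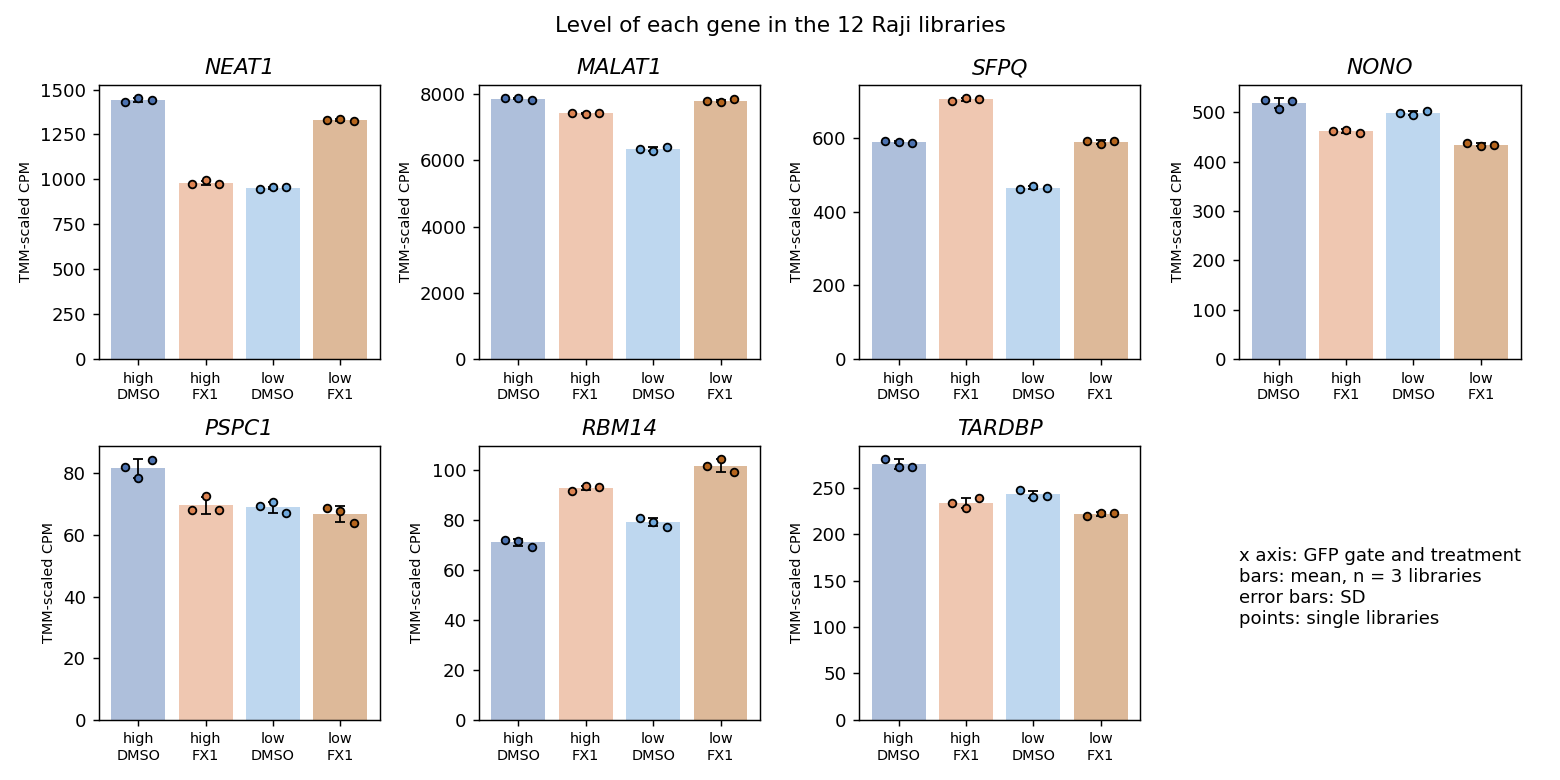
Levels of the 7 genes in TMM-scaled CPM (vertical axes, each from 0) by GFP gate and treatment; bars are means of 3 libraries, error bars SD and points single libraries. NEAT1 is near 1442 and 1329 CPM in GFP-high DMSO and GFP-low FX1 and below 1000 CPM in the other groups, while SFPQ and RBM14 are higher with FX1 in both gates (for RBM14 in GFP-low not once a GC and length trend is removed).

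NEAT1 was lower with FX1 in GFP-high cells and higher with FX1 in GFP-low cells. The 3 GFP-high DMSO libraries held 1430, 1453 and 1442 CPM and the 3 GFP-high FX1 libraries 975.1, 994.8 and 975.7. The GFP-low DMSO libraries held 948.3, 956.7 and 955.1 CPM and the GFP-low FX1 libraries 1328, 1335 and 1325. With TMM scaling, GFP-high DMSO was the highest group, then GFP-low FX1, GFP-high FX1 and GFP-low DMSO, and no neighbours in that order overlapped. The gap between the lowest pair was small, at 981.9 ± 11.2 against 953.3 ± 4.47 CPM (mean ± SD, n = 3 each). This order depended on the scaling. As a share of all counts, GFP-low FX1 (0.141 to 0.142%) was above GFP-high DMSO (0.133 to 0.135%), and GFP-high FX1 and GFP-low DMSO overlapped.

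In GFP-high cells, NEAT1 with FX1 stood at 0.681 times its DMSO level, a log2 fold change of -0.55 ± 0.012 (SE). In GFP-low cells the ratio was 1.39, or 0.48 ± 0.012 on the log2 scale. The difference of these FX1 effects, GFP-low minus GFP-high, was 1.03 ± 0.017 (log2). Between gates, GFP-low was below GFP-high by a log2 fold change of -0.6 ± 0.012 under DMSO and above it by 0.44 ± 0.012 under FX1. In the GFP-high gate NEAT1 took 0.133 to 0.135% of all counts under DMSO and 0.0966 to 0.0986% under FX1, and in the GFP-low gate 0.0968 to 0.0977% and 0.141 to 0.142%. Across the 20 other settings tried for each contrast (19 for the difference), its direction and call held, with the FX1 effect from -0.56 to -0.46 in GFP-high and from 0.44 to 0.54 in GFP-low.

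The same crossing was counted over the tested genes. Of 17859 genes, 174 (0.974%) were called lower in GFP-high and higher in GFP-low with FX1, at an adjusted p under 0.05 in each. At 1.3-fold or more in both gates, 22 genes (0.123%) did so, and 23 (0.129%) went the opposite way. NEAT1 and MALAT1 are among the 174, a place that the choice of the genes may have fixed. Counts were made over the whole gene, so the short and long isoforms of NEAT1 cannot be told apart.

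MALAT1 differed less between groups than NEAT1, and its lowest group was also GFP-low DMSO. Libraries of GFP-high DMSO held 7871, 7871 and 7834 CPM and the GFP-high FX1 libraries 7437, 7398 and 7412. Libraries of GFP-low DMSO held 6348, 6284 and 6386 CPM and the GFP-low FX1 libraries 7786, 7771 and 7837. GFP-low DMSO lay below every other library, and with TMM scaling the ranges of GFP-high DMSO and GFP-low FX1 overlapped. As a share of all counts they did not, at 0.728 to 0.73% in GFP-high DMSO and 0.824 to 0.835% in GFP-low FX1.

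With FX1, the log2 fold change of MALAT1 was -0.08 ± 0.0094 in GFP-high and 0.3 ± 0.0094 in GFP-low, ratios of 0.944 and 1.23, and the effects differed by 0.38 ± 0.013. Between gates it was -0.31 ± 0.0094 under DMSO and 0.07 ± 0.0094 under FX1, each past the threshold in every setting but of unsteady size. Without the GC and length trend these were -0.15 and 0.34, on library totals alone -0.17 and 0.17, and the latter was 0.03 without any 1 GFP-high DMSO library. The small negative value in GFP-high depended on the scaling. As a share of all counts MALAT1 was at 0.728 to 0.73% in GFP-high DMSO and 0.733 to 0.737% in GFP-high FX1, and scaling to library totals alone gave 0.01. Removing a trend on GC content and length gave -0.01, not past the threshold. The 0.3 in GFP-low ranged from 0.25 to 0.48 over all settings. An antisense gene inside MALAT1, ENSG00000270117, held 0 to 18 reads per library, 62 in all. The strand setting of the counting is not given in the sources used here, so reads of the 2 strands may be mixed.

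SFPQ, the core paraspeckle protein gene, was higher with FX1 in both gates and lower in GFP-low under both treatments. The GFP-high DMSO libraries held 592.2, 588.5 and 586.1 CPM and the GFP-high FX1 libraries 699.8, 707.4 and 705.1. The GFP-low DMSO libraries held 460.6, 470.2 and 464.2 CPM and the GFP-low FX1 libraries 591.7, 582.4 and 591.1. GFP-low FX1 thus overlapped GFP-high DMSO, while GFP-high FX1 was highest and GFP-low DMSO lowest. The FX1 effect was 0.26 ± 0.013 (log2) in GFP-high and 0.34 ± 0.014 in GFP-low. GFP-low against GFP-high was -0.34 ± 0.014 under DMSO and -0.26 ± 0.013 under FX1, and all 4 kept their direction and call in every setting tried. On library totals alone the gate differences were smaller, at -0.2 under DMSO and -0.16 under FX1. The difference of the FX1 effects, 0.08 ± 0.019, fell below the threshold when any 1 GFP-high DMSO library was left out (0.03 to 0.04) and under 4 other settings.

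NONO, the partner of SFPQ in paraspeckles, was lower with FX1 in both gates, opposite to SFPQ. In GFP-high, the DMSO libraries held 525.9, 507.1 and 523.5 CPM and the GFP-high FX1 libraries 462.8, 464.6 and 457.4. In GFP-low, the DMSO libraries held 498.4, 494.5 and 501.9 CPM and the GFP-low FX1 libraries 437.1, 432.6 and 434.2. None of the 4 groups overlapped, in the order GFP-high DMSO, GFP-low DMSO, GFP-high FX1 and GFP-low FX1. The FX1 effect was -0.17 ± 0.014 (log2) in GFP-high and -0.2 ± 0.015 in GFP-low, and their difference, -0.03 ± 0.02, did not pass the threshold. On library totals alone the effect in GFP-high was -0.07. Leaving out any 1 GFP-high DMSO library brought that difference past it, at -0.09 to -0.06. GFP-low against GFP-high was -0.06 ± 0.015 under DMSO and -0.09 ± 0.014 under FX1, and both turned positive (0.08 and 0.01) when libraries were scaled to their totals alone, the former also without the GC and length trend (0.01).

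PSPC1, with the least abundant RNA of the 3 related genes, was highest in GFP-high DMSO. The GFP-high DMSO libraries held 82.25, 78.39 and 84.46 CPM and the GFP-high FX1 libraries 68.01, 72.65 and 68.16. The GFP-low DMSO libraries held 69.41, 70.67 and 67.12 CPM and the GFP-low FX1 libraries 68.77, 67.68 and 63.81. The last 3 groups overlapped one another and GFP-high DMSO stood above them. FX1 gave -0.23 ± 0.033 (log2) in GFP-high and -0.04 ± 0.034 in GFP-low, the latter not past the threshold, with a difference of 0.19 ± 0.047. GFP-low against GFP-high was -0.24 ± 0.034 under DMSO and -0.05 ± 0.033 under FX1, the latter again not past it, and the values short of the threshold were positive without the GC and length trend (0.06 and 0.07). The PSPC1 values past the threshold kept their call but were smaller on library totals alone, at -0.13 for FX1 in GFP-high and -0.1 between gates under DMSO, the latter -0.14 without the GC and length trend. With TMM scaling, the values short of the threshold passed it when any 1 GFP-high DMSO library was left out (-0.09, and -0.1), and the difference no longer did without GFP-high DMSO replicate 3 (0.11).

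RBM14, the bridging protein gene, was higher with FX1 in both gates, though in GFP-low not once a GC and length trend was removed (-0.01). In GFP-high, the DMSO libraries held 72.03, 71.5 and 69.29 CPM and the GFP-high FX1 libraries 91.63, 93.49 and 92.96. In GFP-low, the DMSO libraries held 80.66, 79.23 and 77.23 CPM and the GFP-low FX1 libraries 101.5, 104.4 and 98.98. No groups overlapped, and GFP-low was above GFP-high under each treatment (not with that trend removed, at -0.01 and -0.16). The FX1 effect was 0.38 ± 0.031 (log2) in GFP-high and 0.36 ± 0.03 in GFP-low, with a difference of -0.02 ± 0.043 that did not pass the threshold. GFP-low against GFP-high was 0.16 ± 0.032 under DMSO and 0.14 ± 0.028 under FX1. These were 0.29 and 0.23 on library totals alone, and the latter was 0.09 without any 1 GFP-high DMSO library.

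RBM14 is the most GC-rich of the 7, at 59.4% in its longest annotated transcript. Fold changes rose with GC content over 10430 well expressed genes in all 4 group comparisons, with a Spearman rho across genes, which are not independent replicates, of 0.293 and 0.499 for FX1 in the GFP-high and GFP-low gates. Between gates it was 0.515 under DMSO and 0.685 under FX1. The part of this trend in the RBM14 values was not tested beyond its removal, after which FX1 gave 0.14 in GFP-high. The readthrough gene RBM14-RBM4, which shares its exons, held 3.72 to 5.4% of the RBM14 count. Counts per gene do not show how reads in the shared exons were assigned, so this share does not measure the overlap.

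TARDBP was lower with FX1 in both gates, though in GFP-low not once the GC and length trend was removed (0.06). The GFP-high DMSO libraries held 281.6, 273.1 and 272.2 CPM and the GFP-high FX1 libraries 233.9, 228.4 and 239.2. The GFP-low DMSO libraries held 247.6, 239.8 and 241.7 CPM and the GFP-low FX1 libraries 219.3, 223.6 and 223.6. The groups did not overlap, though GFP-low DMSO and GFP-high FX1 came close. The FX1 effect was -0.24 ± 0.018 (log2) in GFP-high and -0.13 ± 0.019 in GFP-low, a difference of 0.1 ± 0.026. GFP-low against GFP-high was -0.18 ± 0.019 under DMSO and -0.08 ± 0.018 under FX1. At 40.2%, TARDBP is the least GC-rich of the 7, and without the GC and length trend the FX1 effect in GFP-low was 0.06 and the gate difference under FX1 0.18, both past the threshold in the opposite direction. Leaving out any 1 GFP-high DMSO library took the difference of the FX1 effects below the threshold (0.04 to 0.07), and removing the GC and length trend raised it to 0.21. On library totals alone, the FX1 effect was -0.14 in GFP-high and -0.07 in GFP-low, and the gate difference under DMSO -0.04.

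**Figure D2:**
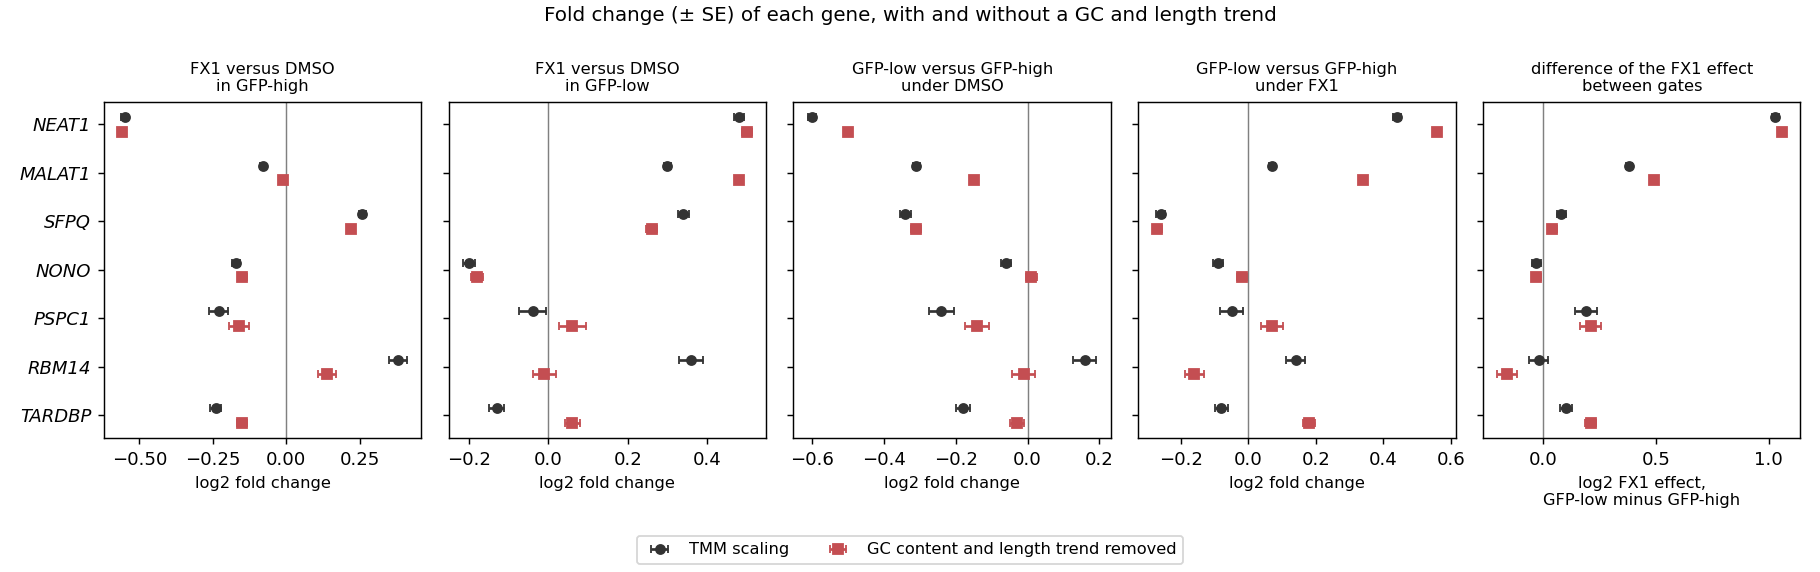
Log2 fold changes (horizontal axes, ± SE) of the 7 genes in each of the 4 group comparisons and for the gap between the FX1 effects, with TMM scaling (circles) and after removal of a GC content and length trend (squares). NEAT1 is on the same side of 0 with both, while RBM14 and TARDBP cross 0 for FX1 in GFP-low (0.36 to -0.01, and -0.13 to 0.06) and between gates under FX1 (0.14 to -0.16, and -0.08 to 0.18).

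By an edgeR quasi-likelihood adjusted p under 0.05, FX1 in GFP-high had 2 of the 7 genes higher and 5 lower, where 68.4% of all tested genes were called, 33.8% higher and 34.6% lower. With FX1 in GFP-low, 4 were higher and 2 lower against 68.0% of all genes, 33.7% higher and 34.3% lower. Between gates under DMSO, 1 was higher and 6 lower against 46.1% (21.7% higher and 24.4% lower). Under FX1 3 were higher and 3 lower against 56.9% (30.2% higher and 26.7% lower). The FX1 effects differed for 5 genes, all with a positive difference, against 31.3% of all genes (14.8% positive and 16.5% negative). The 2 groups did not overlap for 7, 6, 7 and 6 of the 7 genes in the first 4 comparisons, against 70.2%, 69.6%, 51.6% and 61.1% of all genes. The median log2 fold changes of the 7 were -0.17, 0.3, -0.24, -0.05 and 0.1 in this order, and those of all genes -0.01, -0.01, 0.03, 0.08 and 0.02. Comparisons that share a group are not independent of each other. Nothing is read from these counts because the genes were chosen with the contrasts known.

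Over the 12 libraries, NONO, PSPC1 and TARDBP varied together and RBM14 varied against them. Pearson's r of log2 CPM was 0.9 for NONO and TARDBP, 0.86 for PSPC1 and TARDBP, 0.76 for NONO and PSPC1, and -0.98 for NONO and RBM14. NEAT1 and MALAT1 had an r of 0.8, and NEAT1 with SFPQ and NONO 0.15 and 0.05. The 12 libraries fall into 4 groups of 3 and share depth and scaling, so these values describe the groups and have no p.

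Promoter entries of RefSeq (GRCh38.p14, 250 bases before to 50 after each start) matched 5 of the 7 genes, all but NEAT1 and SFPQ. Stretches of 60 bases are shown for NONO, PSPC1 and TARDBP because these were the genes that varied together. They lie at chrX:71283567-71283626 (plus), chr13:19782926-19782985 (minus) and chr1:11012614-11012673 (plus), with GCCATTTTG in capitals.
NONO promoter stretch: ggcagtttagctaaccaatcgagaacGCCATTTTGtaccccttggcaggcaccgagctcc
PSPC1 promoter stretch: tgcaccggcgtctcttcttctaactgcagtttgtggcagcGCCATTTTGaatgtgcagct
TARDBP promoter stretch: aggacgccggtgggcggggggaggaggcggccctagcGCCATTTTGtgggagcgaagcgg
The motif begins 42 bases before the annotated start in NONO, 3 before it in TARDBP and at the start itself in PSPC1. It was chosen after these sequences were seen, and 0.75% of 34943 promoters hold it on either strand. MALAT1 has 2 entries, and the downstream one (chr11:65498989-65499048, plus) has a TATA box in capitals that begins 30 bases before the start.
MALAT1 promoter stretch: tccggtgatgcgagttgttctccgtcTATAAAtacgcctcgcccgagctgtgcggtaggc
TATAAA occurs in 11.6% of promoters and in none of the other entries of these genes. CCAAT was found 3 times each in the NONO and RBM14 promoters and in 34.6% of all promoters. The other motifs searched on both strands were GGGCGG (44.9% of promoters, 1 match in TARDBP and 5 in the upstream MALAT1 entry), TGACNNNGC (13.3%, 1 in PSPC1 and 2 in the upstream MALAT1 entry), ACGTG (21.4%, 1 in TARDBP) and CGCATGCG (2% of promoters, 1 in PSPC1). TGACGTCA (1.84%), GAANNTTC (6.79%) and the BCL6-type motif TTCCTNGAA (1.56%) had 0 matches in these windows, which says only that these letters are not in them. No motif searched contains another.

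Other proteins reported in paraspeckles, 28 genes that were all tested, moved in both directions with FX1 and were mostly lower in GFP-low. With FX1, 8 rose and 15 fell in GFP-high (median -0.06, all genes -0.01), and 13 rose and 13 fell in GFP-low (median -0.01, all genes -0.01). In GFP-low against GFP-high, 3 rose and 22 fell under DMSO (median -0.22, all genes 0.03), and 4 rose and 20 fell under FX1 (median -0.17, all genes 0.08). Of all tested genes, 33.8% rose and 34.6% fell with FX1 in GFP-high, and 33.7% and 34.3% did in GFP-low. Between gates, 21.7% of all tested genes rose and 24.4% fell under DMSO, and 30.2% and 26.7% did under FX1. On library totals alone, 13 rose with FX1 in GFP-high, and 9 rose in GFP-low under FX1. In that setting, 58.1% and 65.7% of all calls in these contrasts were higher, against 49.5% and 53.1% with TMM.

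Among these, EWSR1, an RNA-binding protein, rose by 0.38 ± 0.016 in GFP-high and 0.46 ± 0.016 in GFP-low with FX1 (edgeR adjusted p 1.3e-65 and 6.1e-80). UBAP2L rose as EWSR1 did, by 0.41 ± 0.017 and 0.46 ± 0.017 (adjusted p 7.4e-65 and 9.1e-72). HNRNPA1, a splicing repressor, fell in both gates, with log2 fold changes of -0.5 and -0.45 (adjusted p 1e-106 and 1.3e-96), and RBMX fell likewise, at -0.51 and -0.64 (adjusted p 2.4e-84 and 9e-98). HNRNPA1 and RBMX have processed pseudogene copies, so their counts are less certain. Genes given with p-values here and for the lists below were picked by lowest p in a contrast. The lists were written with earlier results of these data known, so these p-values are not independent evidence.

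NUDT21, the cleavage factor subunit that reads UGUA and favours the short NEAT1 isoform, fell with FX1 in both gates. In the GFP-high gate its level was 70.8 ± 3.25 CPM under DMSO and 44.1 ± 0.601 under FX1, and in the GFP-low gate 57.8 ± 1.22 and 25 ± 0.936 (n = 3 each). Its log2 fold change with FX1 was -0.68 ± 0.038 in GFP-high and -1.21 ± 0.043 in GFP-low (edgeR adjusted p 1.2e-44 and 2.2e-76), and the effects differed by -0.53 ± 0.058 (adjusted p 6.6e-16). CPSF6, its partner in the same factor, fell as well, at -0.09 ± 0.02 in GFP-high and -0.27 ± 0.021 in GFP-low (adjusted p 1.9e-05 and 4.4e-28). CPSF7, the alternative partner, stood higher with FX1, by 0.09 ± 0.022 in GFP-high and 0.29 ± 0.023 in GFP-low. HNRNPK, which opposes this factor at the short end, stood lower, at -0.13 ± 0.013 and -0.15 ± 0.013. CPSF7 and HNRNPK were added after their values were seen, for their known place in NEAT1 end choice, so they are described without p-values. Whether NEAT1 isoform use changed was not tested, since the counts do not separate the isoforms.

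SMARCA4 itself, whose protein the degron targets, held 380.6 ± 3.77 and 388.5 ± 2.54 CPM in GFP-high DMSO and FX1, and 395.1 ± 4.99 and 456 ± 4.04 CPM in GFP-low DMSO and FX1 (n = 3 each). GFP-low was above GFP-high by 0.05 ± 0.015 under DMSO and 0.23 ± 0.015 under FX1 (edgeR adjusted p 0.002 and 1.8e-37). Over all genes in the fit without the GC and length trend, 5585 of 8183 gate calls under DMSO kept call and direction. Under FX1, 6048 of 10066 did, and 965 turned to the opposite direction. The part of this trend and of the scaling in the SMARCA4 values was not tested. An RNA level does not check the loss of the protein.

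**Figure D3:**
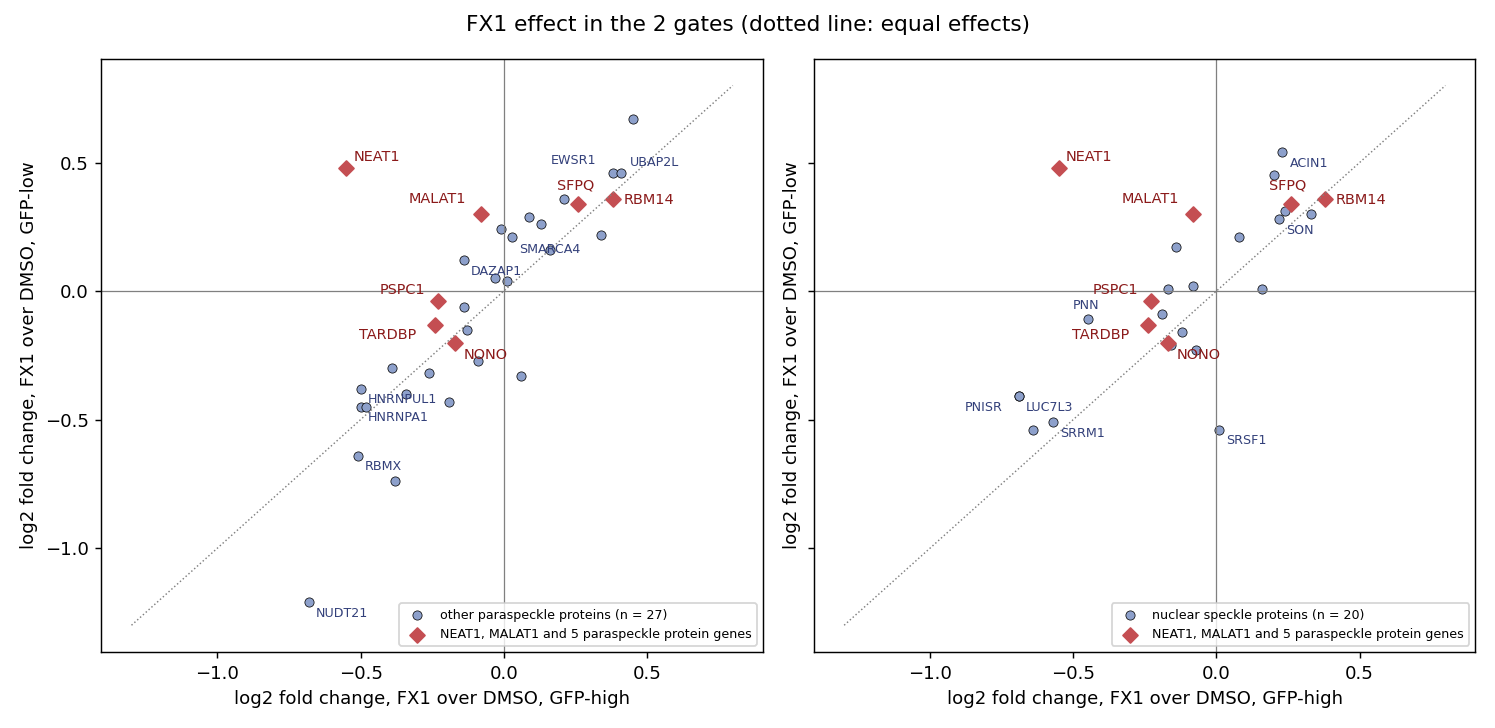
Log2 fold change with FX1 in GFP-high (horizontal) and GFP-low (vertical) for the 7 genes (red diamonds) and, in blue, 27 of the 28 other paraspeckle proteins (left) and 20 nuclear speckle proteins (right); the dotted line marks equal effects. NEAT1 lies far above the line at -0.55 and 0.48, and NUDT21 (-0.68 and -1.21) and SRSF1 (0.01 and -0.54) lie below it.

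The genes that make the 3′ ends of NEAT1 and MALAT1 were tested as a list of RNase P subunits, the tRNA 3′ processing enzyme ELAC2 (RNase Z) and METTL16, which binds the MALAT1 triple helix. Of 14 genes 12 were tested. RPPH1, the RNA subunit of RNase P, and RPP25 were both listed at 0 in all 12 libraries. With FX1, 11 rose and 0 fell in GFP-high (median 0.25) and 10 rose and 0 fell in GFP-low (median 0.23). Over all genes, 33.8% rose and 34.6% fell in GFP-high, 33.7% and 34.3% did in GFP-low, and both medians were -0.01. Between gates, 0 rose and 5 fell under DMSO (4 rose and 1 fell on library totals alone), and 2 rose and 6 fell under FX1 (3 fell on library totals alone). Over all genes, 21.7% rose and 24.4% fell between gates under DMSO, and 30.2% and 26.7% did under FX1. On library totals alone, 74.6% of all gate calls under DMSO and 65.7% under FX1 were higher, against 47.1% and 53.1% with TMM. ELAC2 rose by 0.25 ± 0.024 in GFP-high and 0.4 ± 0.024 in GFP-low (edgeR adjusted p 3.4e-21 and 4.1e-42), from 125.2 ± 2.04 to 149.2 ± 2.67 and from 123.6 ± 1.6 to 163.4 ± 2.04 CPM (n = 3 each). POP4, a protein subunit of RNase P, rose by 0.53 ± 0.049 and 0.55 ± 0.051 (adjusted p 2.4e-21 and 1.6e-21). METTL16 rose by 0.21 ± 0.027 in GFP-low (adjusted p 7.5e-13). ELAC2 was the 1 gene of the 12 whose FX1 effect differed between gates, by 0.15 ± 0.034 (adjusted p 0.00013). Of all tested genes, 31.3% passed this test. After removal of the GC and length trend, 0 of the 12 did. Over all genes in that fit, 3598 of 5552 called differences kept call and direction.

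Nuclear speckle proteins, the surroundings of MALAT1, were tested as 20 genes. With FX1, 7 rose and 12 fell in GFP-high (median -0.1, all genes -0.01), and 7 rose and 10 fell in GFP-low (median -0.04, all genes -0.01). In GFP-low against GFP-high, 0 rose and 17 fell under DMSO (median -0.14, all genes 0.03), and 4 rose and 13 fell under FX1 (median -0.15, all genes 0.08). Of all tested genes, 33.8% rose and 34.6% fell with FX1 in GFP-high, and 33.7% and 34.3% did in GFP-low. Between gates, 21.7% of all tested genes rose and 24.4% fell under DMSO, and 30.2% and 26.7% did under FX1. SON, the speckle core protein, rose with FX1 by 0.22 ± 0.013 and 0.28 ± 0.013 (edgeR adjusted p 9.1e-40 and 4.2e-56). PNISR and LUC7L3 fell, both at -0.69 in GFP-high (adjusted p 3.1e-115 and 4.4e-92) and both at -0.41 in GFP-low (adjusted p 1.2e-68 and 1.6e-51). SRSF1, a splicing activator, fell in GFP-low, at -0.54 ± 0.02 (adjusted p 1.8e-72), against 0.01 ± 0.019 in GFP-high (adjusted p 0.65), a difference of -0.55 ± 0.028 (adjusted p 3.9e-50). After removal of the GC and length trend, 12 of the 20 rose with FX1 in GFP-low, 12 rose and 6 fell between gates under FX1, and 3 rose and 11 fell between gates under DMSO. Of all genes called in these 3 contrasts with that trend removed, 50.2%, 54.7% and 53.2% were higher. On library totals alone, 4 rose and 8 fell between gates under DMSO, where 74.6% of all calls were higher.

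Other long noncoding RNAs were called in both directions. Of 14 tested, 6 rose and 7 fell with FX1 in GFP-high (median -0.15, all genes -0.01) and 5 rose and 8 fell in GFP-low (median -0.3, all genes -0.01). Of all tested genes, 33.8% rose and 34.6% fell in GFP-high, and 33.7% and 34.3% did in GFP-low. CYTOR rose by 1.03 ± 0.038 and 0.89 ± 0.036 (edgeR adjusted p 3.5e-73 and 1.2e-66), and KCNQ1OT1, an imprinted antisense RNA, fell, at -0.84 ± 0.027 and -0.66 ± 0.025 (adjusted p 5e-86 and 3.2e-72). MIR155HG, the host of miR-155, rose by 1 ± 0.053 in GFP-high (adjusted p 1.3e-46), from 22.6 ± 1.76 to 44.9 ± 1.72 CPM, and held 22.3 ± 1.5 and 19.1 ± 1.82 CPM in GFP-low DMSO and FX1 (n = 3 each). Its FX1 effects differed by -1.24 ± 0.08 (adjusted p 8.3e-35), opposite in sign to NEAT1. For MIAT, the difference was positive, as for NEAT1, at 0.85 ± 0.21 (adjusted p 0.00054). Unlike NEAT1, it fell with FX1 in both gates, at -1.53 ± 0.16 in GFP-high and -0.68 ± 0.14 in GFP-low. Its level was low, with group means from 1.82 CPM in GFP-high FX1 to 5.18 CPM in GFP-high DMSO.

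The genes around NEAT1 and MALAT1 were called in both directions with FX1. Within 250 kb, 47 genes are annotated and 28 were tested. With FX1, 11 were higher and 8 lower in GFP-high (median 0.07, all genes -0.01), and 13 higher and 8 lower in GFP-low (median 0.32, all genes -0.01). Between gates, 15 were higher and 1 lower in GFP-low under DMSO (median 0.24), and 16 higher and 0 lower under FX1 (median 0.43). Over all genes, 21.7% were higher and 24.4% lower under DMSO (median 0.03), and 30.2% and 26.7% under FX1 (median 0.08). For FX1 against DMSO, 33.8% of all genes were higher and 34.6% lower in GFP-high, and 33.7% and 34.3% in GFP-low. Gate fold changes rose with GC content over well expressed genes, with a rho of 0.515 under DMSO and 0.685 under FX1. The part of this trend in the counts of neighbours was not tested. FRMD8, the nearest tested protein-coding gene upstream of NEAT1, was higher with FX1 in both gates, by 0.95 ± 0.046 and 1.04 ± 0.04 (edgeR adjusted p 2.2e-54 and 1.9e-70), where NEAT1 was lower in GFP-high. EHBP1L1, downstream of MALAT1, stood at -0.68 ± 0.036 in GFP-high (edgeR adjusted p 9.7e-48) and at -0.01 ± 0.035 in GFP-low (adjusted p 0.9), a difference of 0.67 ± 0.051 (adjusted p 8.1e-29). Of the 28, 6 had a positive and 1 a negative difference of the FX1 effect, against 14.8% and 16.5% of all tested genes. The 6 include LINC02736, whose group means were all under 1 CPM (4.66 ± 1.7, edgeR adjusted p 0.025).

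**Figure D4:**
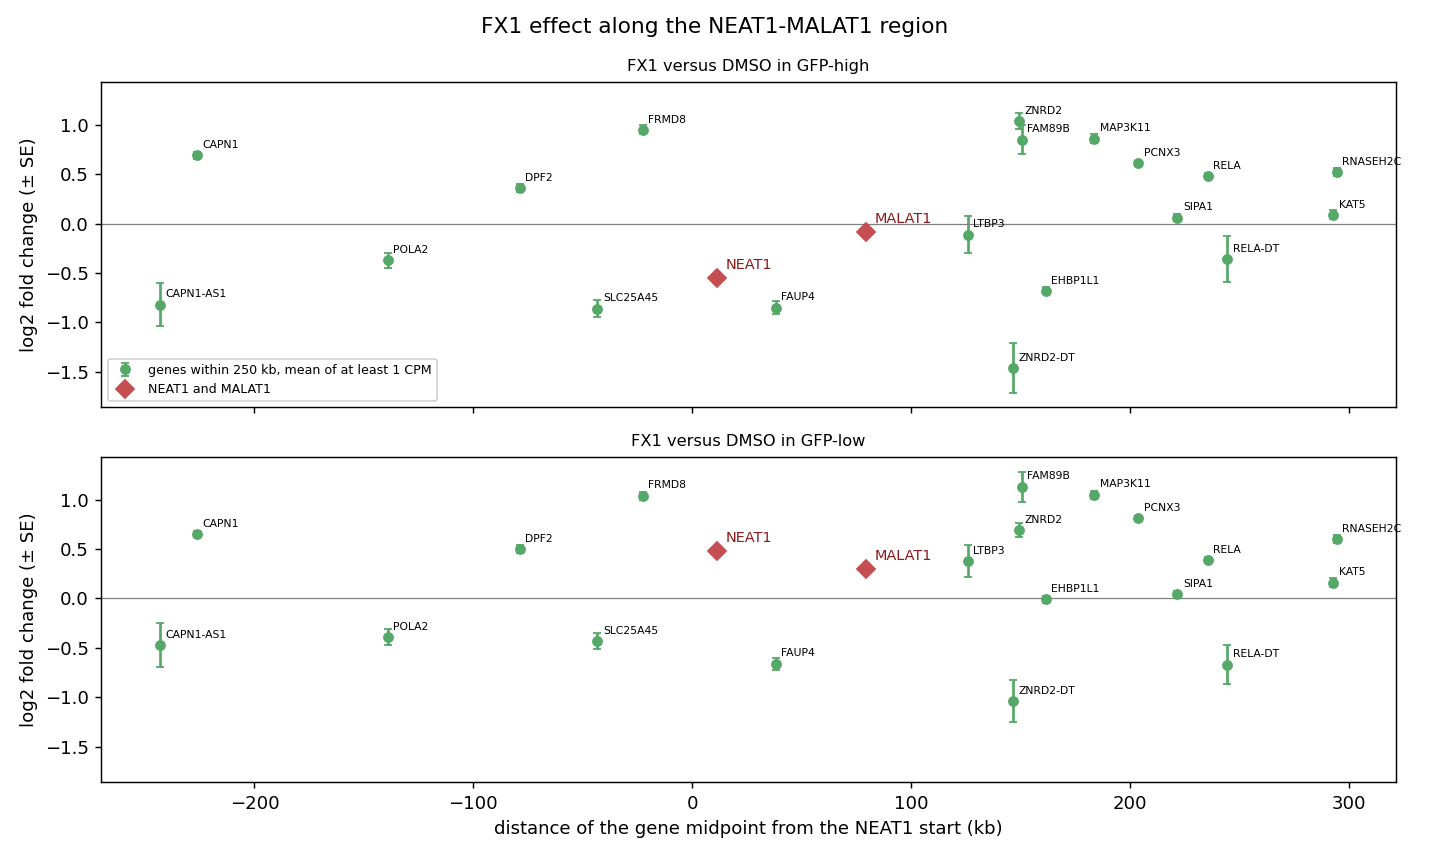
Log2 fold change with FX1 (vertical axes, ± SE) of genes with a mean of at least 1 CPM (all but 1) within 250 kb of NEAT1 or MALAT1, by distance of the gene midpoint from the NEAT1 start in kb, in GFP-high (top) and GFP-low (bottom). NEAT1 (-0.55, then 0.48) and MALAT1 (-0.08, then 0.3) are red diamonds, and FRMD8 beside them is near 1 in both gates.

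The genes whose log2 CPM followed NEAT1 most closely over the 12 libraries, among 10001 genes compared, were MTND2P28 (r = 0.967), TENT4A (0.932), SFSWAP (0.927), ZNF875 (0.905) and XPC (0.9). MTND2P28 is a nuclear copy nearly identical to a mitochondrial gene, so its reads may be mitochondrial, and its group means were 101.5, 60.7, 59.3 and 109.2 CPM in GFP-high DMSO, GFP-high FX1, GFP-low DMSO and GFP-low FX1. With mitochondrial genes and the 1 other gene above 1% of a library left out of the scaling, the FX1 effect of NEAT1 was -0.55 in GFP-high and 0.44 in GFP-low. Among the 5 genes closest to MALAT1 were IGHV3-21 (0.988), NOP56 (0.973) and JUND (0.953). Of the 5 protein genes followed here, SFPQ was the closest to MALAT1 (0.71). IGHV3-21 is an immunoglobulin segment with close relatives, so its count is uncertain. With 4 group means behind the 12 libraries, these likenesses describe the groups and have no p.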

How the data were processed

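RNA-seq of 12 Raji libraries (ribosomal RNA-depleted total RNA, KAPA RNA HyperPrep, per the labels' protocols) was analysed from the raw counts per gene that the authors deposited. FastQC, STAR on hg38, featureCounts of Subread and R 4.2.1 were used, per the submitters' processing notes. Aligner and counter versions, annotation release and strand setting are not given in the sources used here. Of 60710 lines, 3 forming 1 broken record were left out. Of 60707 genes, 60506 (99.7%) had a symbol, and 0 count columns lacked a sample. Reads carry no molecular identifiers, so copies made by PCR may be counted.

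Genes passing filterByExpr (17859) were scaled by TMM and tested with edgeR 4.0.16 in R 4.3.3, by a robust quasi-likelihood fit with a term per group over all 12 libraries (8 residual degrees of freedom). P-values were adjusted by Benjamini-Hochberg over all tested genes, with a threshold of 0.05. The common coefficient of variation between libraries of a group, beyond sampling of reads, was 1.67%. Between 2 libraries of a group, counts varied 1.7 to 2.01 times as much (variance) as sampling alone gives. The p-values therefore rest on a very small spread between libraries. A check on simulated data used 16867 genes: for FX1 in GFP-low, 81.8% of genes changed 1.2-fold and 100% of those changed 1.5-fold or 2-fold were recovered, and 7 unchanged genes were called.

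The genes and lists were chosen with earlier results of these data known. The text names all 7 genes, per list and contrast up to 3 called genes of lowest p in each direction, tested genes within 250 kb, and the 5 genes of highest correlation with NEAT1 and with MALAT1 (mean log2 CPM of at least 2). Levels per kb use the exon length in the file. Transcript sequences, GC content and lengths come from GENCODE 29, and promoters from RefSeq.

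Other settings were DESeq2 size factors, DESeq2 1.42.0, no low-count filter, fits of the compared groups alone, a block for replicate number, scaling without mitochondrial genes or any gene over 1% of a library, removal of a smooth GC and length trend per library (17557 genes, 98.3%), and leaving out each library. Scaling to library totals without TMM was added after seeing the data. A few genes that this rule would name are not reported here by name, and they remain in the counts.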

Additional observations from a re-analysis of the deposited data

Results flagged for a closer look

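The FX1 effect differed between gates by the interaction test of the edgeR fit (adjusted p under 0.05 over all genes) for these genes among others, each with the log2 FX1 effect in GFP-low minus that in GFP-high. Of all 17859 genes, 31.3% passed this test. Among the 7 genes chosen with results known, for which the value is a description, it was 1.03 for NEAT1, 0.38 for MALAT1, 0.19 for PSPC1, 0.1 for TARDBP and 0.08 for SFPQ.

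Among other paraspeckle proteins it was 0.25 for DAZAP1, 0.18 for SMARCA4, -0.18 for CPSF6, -0.24 for ZNF24 and -0.53 for NUDT21. Among speckle proteins it was 0.34 for PNN, 0.31 for ACIN1, 0.28 for PNISR, -0.15 for SRSF2, -0.16 for SRSF3 and -0.55 for SRSF1, and ELAC2 stood at 0.15. Among long noncoding RNAs it was 0.85 for MIAT, 0.18 for KCNQ1OT1, 0.12 for TUG1, -0.23 for OIP5-AS1, -0.24 for FTX and -1.24 for MIR155HG. Within 250 kb of NEAT1 or MALAT1, it was 0.67 for EHBP1L1, 0.42 for SLC25A45, 0.19 for MAP3K11, 0.19 for PCNX3, 0.14 for DPF2 and -0.36 for ZNRD2, counting genes with a mean of at least 1 CPM.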

How the results depend on the processing

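NEAT1 kept its direction and call in each contrast under all settings run. For the other genes, values that changed side of the threshold or direction were as follows, and the cause was not tested; larger and smaller values that kept their call stand beside each gene above. Removing the GC and length trend gave, for FX1 in GFP-high, -0.01 for MALAT1; for FX1 in GFP-low, -0.01 for RBM14 and 0.06 for TARDBP; between gates under DMSO, 0.01 for NONO, -0.01 for RBM14, -0.03 for TARDBP and 4 of the 7 genes called in place of 7; between gates under FX1, -0.02 for NONO, -0.16 for RBM14 and 0.18 for TARDBP; and, as the difference of FX1 effects, 0.04 for SFPQ and -0.16 for RBM14. Scaling without mitochondrial genes or any gene over 1% of a library gave -0.09 for PSPC1 (FX1 in GFP-low, and between gates under FX1), and differences of 0.04 for SFPQ, -0.07 for NONO and 0.06 for TARDBP. Library totals without TMM, added after seeing the data, gave 0.01 for MALAT1 (FX1 in GFP-high), 0.08 for NONO under DMSO, 0.01 for NONO and 0.02 for TARDBP under FX1, and differences of 0.04 for SFPQ and -0.07 for NONO. Without a low-count filter, NONO between gates under DMSO was -0.04 and the SFPQ difference 0.07, and with only the groups compared (not run for the difference) PSPC1 between gates under FX1 was -0.09.

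Leaving out each library in turn changed calls only for GFP-high DMSO libraries. The values lay between -0.09 and -0.01 for PSPC1 (FX1 in GFP-low), -0.1 and -0.02 for PSPC1 (between gates under FX1), and for the difference between 0.03 and 0.09 for SFPQ, -0.09 and -0.03 for NONO, 0.04 and 0.12 for TARDBP and 0.11 and 0.21 for PSPC1, with 3 to 5 of the 7 genes called (3 without GFP-high DMSO replicate 3). Library totals moved the median of all genes by 0.14 between gates under DMSO, and the share of calls that were higher from 47.1% to 74.6%, and from 53.1% to 65.7% under FX1. For the difference, that share went from 47.2% to 36.0% with mitochondrial genes left out of scaling. With the replicate number as a block, the NEAT1 difference was 1.03 ± 0.017 and no call of the 7 genes changed. Same-numbered libraries did not deviate together (correlations of -0.012 to 0.017), so the numbers were not taken to pair the libraries.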
